A study of Mus musculus with 23 samples.

Results

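Endothelial cell genes were described in a B16F10 melanoma series as 10 members, Pecam1, Cdh5, Kdr, Tek, Tie1, Flt1, Eng, Vwf, Emcn and Esam. They were taken by gene symbol, 10 of the 47643 genes in the deposited table. B16F10 is a mouse melanoma cell line. RNA of control cells (labeled WT) and of cells edited with either of 2 Nr2f6 guide RNAs, sg492 or sg495 (both labeled NR2F6 KO), was sequenced from bulk tumors, from tumor cells purified out of tumors with magnetic beads (sorted tumor cells) and from cultured cells, with 2 libraries in each of these 9 groups. A further 2 libraries labeled IgG_Control and 3 labeled anti-PD1, all WT, carry no sample type in their labels, and the methods describe no RNA sequencing of antibody-treated tumors.

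By the methods, the edited cells had received Cas9 protein and Cy3-labeled guide RNA and were sorted for Cy3, with no step of single-cell cloning described. Tumors grew under the skin of male C57BL/6 mice that were 6 to 8 weeks old at injection. Before RNA was taken, sorted tumor cells went through collagenase digestion and depletion of stromal cells, with purity checked by CD45 staining, so their vessels were meant to be removed. The labels give no age and do not say which libraries came from separate tumors, mice or cultures, so p-values measure only the spread between these libraries, which may be technical. In bulk samples, fewer endothelial cells and less RNA per endothelial cell cannot be told apart.

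Blood vessels are lined by endothelial cells, which recognize growth factors through receptor tyrosine kinases and hold to each other through junction proteins. Kdr (VEGFR2) and Flt1 (VEGFR1) bind ligands of the VEGF family, Tek (Tie2) binds angiopoietins, and Tie1 is its related partner. Cdh5 (VE-cadherin), Pecam1 (CD31) and Esam join neighboring cells, Emcn is a sialomucin of the cell surface, Vwf is the clotting glycoprotein that endothelial cells store, and Eng (endoglin) is a coreceptor of the TGF-β family. Several are not limited to endothelium: platelets carry Pecam1, Esam and Vwf, leukocytes carry Pecam1, and macrophages can carry Flt1.

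The members lie on 8 mouse chromosomes, with Kdr and Flt1 on chromosome 5 and Tek and Tie1 on chromosome 4. On GRCm38, the same build as the authors' mm10, Eng spans chr2:32646595-32682669, Tek chr4:94739289-94874976, Flt1 chr5:147561604-147726011 and Vwf chr6:125546774-125686679, and all 10 are annotated as protein coding. RefSeq promoter sequences on GRCm38.p6 matched 6 of the 10 members, namely Eng, Emcn, Tek, Tie1, Kdr and Flt1. The 250 bases before the start site are printed for 3 of them, because they stand for the patterns described next: Eng was found in every sample type, while Flt1 and Tek were found in bulk tumors and listed at 0 in all sorted and cultured libraries. Capitals mark GGAA or its reverse complement TTCC, the core letters bound by ETS factors, which are known regulators of endothelial genes. Each sequence is written 5′ to 3′ on the strand of its gene.
Eng (chr2:32646345-32646594, plus strand): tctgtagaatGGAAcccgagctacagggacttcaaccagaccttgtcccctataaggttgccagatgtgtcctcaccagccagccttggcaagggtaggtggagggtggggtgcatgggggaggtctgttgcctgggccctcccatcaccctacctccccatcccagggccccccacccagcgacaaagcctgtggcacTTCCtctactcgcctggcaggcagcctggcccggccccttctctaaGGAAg
Flt1 (chr5:147726012-147726261, minus strand): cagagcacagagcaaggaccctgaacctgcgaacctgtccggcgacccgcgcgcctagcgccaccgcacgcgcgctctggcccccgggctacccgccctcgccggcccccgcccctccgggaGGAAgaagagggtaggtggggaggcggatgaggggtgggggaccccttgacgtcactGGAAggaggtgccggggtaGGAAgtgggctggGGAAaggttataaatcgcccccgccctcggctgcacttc
Tek (chr4:94739039-94739288, plus strand): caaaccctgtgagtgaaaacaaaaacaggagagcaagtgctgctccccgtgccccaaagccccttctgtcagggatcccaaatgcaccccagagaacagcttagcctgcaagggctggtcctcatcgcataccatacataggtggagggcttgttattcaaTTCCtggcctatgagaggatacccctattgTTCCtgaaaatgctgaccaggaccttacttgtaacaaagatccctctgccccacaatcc

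These letters occurred 3 times before Eng, 4 times before Flt1 and 2 times before Tek, counted on both strands, and matches cannot overlap each other. Over 32851 promoters of the same length, 93.45% held at least 1 match and the median was 3. At least as many matches as Eng were found in 54.66% of promoters, at least as many as Flt1 in 33.38%, and at least as many as Tek in 76.84%. The letters CG occurred 23 times before Flt1, 4 times before Eng and 2 times before Tek, against a median of 6, so the 3 windows differed more in CG than in GGAA. These are descriptions of the windows and not binding sites.

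Values are TPM, which are scaled for gene length and for the total of each library and so can be compared between genes. The edited gene was checked first. Nr2f6 had TPM values of 15.8 to 17.2 with sg495, 22.3 to 23.3 with sg492 and 25.2 to 25.8 without editing in bulk tumors. Among sorted tumor cells the sg495 libraries (10.6 and 12.2) were below the controls (17.7 and 20.3), but the libraries labeled sg492 (19.8 and 25.7) were not. Melanocyte genes, 8 in number, summed to between 15290 and 18200 TPM in the 3 sample types and to between 1700 and 5194 TPM in the IgG and anti-PD1 libraries. Leukocyte genes, 12 in number, summed to between 156.6 and 415 TPM in bulk tumors and between 2250 and 4932 TPM in the IgG and anti-PD1 libraries, so these 5 libraries stand apart from bulk tumors.

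Across sample types the members fell into 3 patterns. Pecam1, Cdh5, Esam, Emcn, Kdr, Flt1, Tie1 and Tek were measured in bulk tumors and were at or near 0 in sorted and cultured cells. Eng was measured at similar levels in all 3 sample types, and Vwf was as high in sorted tumor cells as in bulk tumors but low in culture. Without Eng and Vwf, the members summed to between 69.9 and 87.8 TPM in bulk tumors, between 0.26 and 1.08 TPM in sorted tumor cells and between 0.16 and 0.36 TPM in cultured cells. The heat map of all members and libraries shows these patterns side by side.

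**Figure D1:**
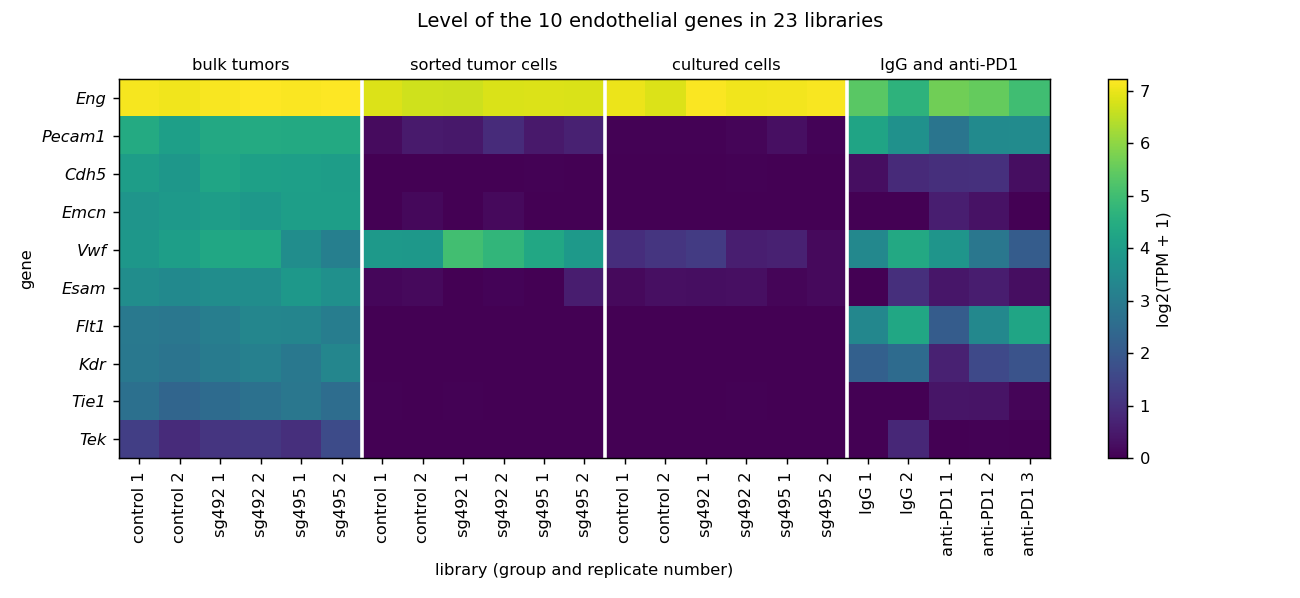
Level of each of the 10 genes (vertical axis) in each of the 23 libraries (horizontal axis), as log2(TPM + 1) on a color scale from dark (0) to yellow. Eng is bright in every column of the 3 sample types, Vwf is bright in bulk tumors and sorted tumor cells, and the other 8 genes are bright in bulk tumors and dark in sorted and cultured cells.

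Junction and surface proteins. Pecam1 TPM in bulk tumors was 20.4 and 16.0 without editing, 19.4 and 20.5 for sg492, 20.1 and 20.1 for sg495. In sorted tumor cells Pecam1 was between 0.15 and 0.85 TPM and in cultured cells between 0.02 and 0.24 TPM. The lowest bulk tumor was 18.8 times the highest sorted library, so the sample types did not overlap. Bulk values of Cdh5 were 15.2 and 13.3 (control), 18.1 and 16.2 (sg492), 16.0 and 15.3 (sg495), all in TPM. Away from bulk tumors Cdh5 was listed at 0 in 5 of 6 sorted and 5 of 6 cultured libraries and at 0.02 TPM in the remaining library of each.

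In the same order of groups, Emcn measured 12.5 and 13.7, 15.2 and 13.5, and then 15.7 and 15.6 TPM in bulk tumors. Emcn was listed at 0 in every cultured library and reached at most 0.13 TPM in sorted tumor cells. Esam measured 10.7 and 9.86, 10.6 and 10.7, and then 13.6 and 11.4 TPM. Unlike Cdh5 and Emcn, Esam had a low value in all 6 cultured libraries, between 0.07 and 0.24 TPM, and reached 0.5 TPM in the second sg495 library of sorted tumor cells.

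Receptor tyrosine kinases. Flt1 had 6.61 and 6.31 TPM in unedited bulk tumors, 7.54 and 8.89 TPM for sg492, and 8.83 and 7.27 TPM for sg495. Kdr had 6.45 and 5.82, 7.01 and 7.77, and 6.39 and 8.88 TPM in these groups. The ranges of both VEGF receptors overlapped in bulk tumors. Tie1 was between 4.16 and 6.31 TPM over the 6 bulk tumors, and Tek, the lowest of the members, was between 0.86 and 2.11 TPM. Flt1 and Tek were listed at 0 in all 12 sorted and cultured libraries, Kdr in all but 1 sorted library at 0.01 TPM, and Tie1 stayed at or below 0.03 TPM.

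Levels in bulk tumors, averaged over the 6 libraries, were ordered Eng (141.7 TPM), Pecam1 (19.39), Cdh5 (15.67), Emcn (14.35), Vwf (14.09), Esam (11.14), Flt1 (7.575), Kdr (7.053), Tie1 (5.173) and Tek (1.315). Of the neighbors in this order, the ranges did not overlap between Eng and Pecam1, between Esam and Flt1 and between Tie1 and Tek. All other neighbors overlapped and are not ordered beyond their spread, although Pecam1 exceeded Cdh5, and Kdr exceeded Tie1, within each of the 6 tumors. Variation between the 6 bulk tumors was smallest for Eng, with a coefficient of variation of 4.05%, and was 8.89% for Pecam1, 9.32% for Emcn and 10.1% for Cdh5. It was largest for Tek, at 34.6%, and Vwf, at 31.6%. These values pool the 3 guide groups, and within groups the coefficient of variation of Vwf was 12.5% in control, 0.227% with sg492 and 22.8% with sg495. Tek was near the floor of the table, whereas Vwf was as abundant as Emcn.

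Bulk tumors were compared with sorted tumor cells over 6 libraries each, which asks what depletion of stroma removed. Log2(TPM + 1) was fitted with limma, and a call needed both a change of at least 1.5 times and a p adjusted after Benjamini and Hochberg of under 0.05. Of all genes, 14.3% were called (1932 of 13493), and 7 of the 9 members tested were called, all higher in bulk tumors. Each of these 7 passed the filter of 1 TPM only through bulk tumors and therefore had to differ, so the count is a description. Their differences on the log2(TPM + 1) scale ran from 2.61 for Tie1 to 4.05 for Cdh5, with Pecam1 at 3.81 (adjusted p = 1.05e-08). The same number, 7, was called without both sorted libraries labeled sg492.

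Eng, the coreceptor, was 137, 133, 141, 148, 144 and 146 TPM in the 6 bulk tumors, 113, 103, 100.2, 112, 113 and 112 TPM in the 6 sorted libraries, and 127, 114, 145, 133, 136 and 140 TPM in the 6 cultured libraries, each in the order control, sg492, sg495. Every bulk tumor was above every sorted library and every sorted library was below every cultured one, but the steps were small. Bulk tumors exceeded sorted tumor cells by 0.38 on the log2 scale (SE 0.041, adjusted p = 6.63e-05), and sorted tumor cells lay 0.28 below cultured cells (log2 difference -0.28, SE 0.046, adjusted p = 0.00051), both less than 1.5 times. The melanoma line itself thus carried Eng RNA at 114 to 145 TPM in culture, where Cdh5, Kdr, Flt1, Tek and Emcn were listed at or near 0.

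Vwf, the stored clotting protein, measured 13.1 and 15.6 TPM in unedited bulk tumors, 13.9 and 13.4 TPM in unedited sorted cells, and 0.92 and 1.16 TPM in unedited cultured cells. Its sg492 values were 18.7 and 18.8 (bulk), 31.8 and 26.1 (sorted), 1.38 and 0.52 (cultured) TPM. Its sg495 values were 10.7 and 7.71 (bulk), 19.2 and 14.2 (sorted), 0.58 and 0.14 (cultured) TPM. Unedited bulk tumors and unedited sorted cells overlapped. All 6 sorted libraries were above all 6 cultured libraries.

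Sorted tumor cells exceeded cultured cells in Vwf by 3.51 on the log2(TPM + 1) scale (SE 0.142, limma adjusted p = 6.19e-08), 11.4 times on that scale. Of all genes, 24.2% were called in this comparison (3047 of 12575), and Vwf was the 1 member called of 2 tested. Vwf averaged 0.783 TPM in cultured cells, so it passed the filter of 1 TPM only through sorted tumor cells. It therefore had to differ, and its call is a description. Vwf was called as well without both sorted libraries labeled sg492. Bulk tumors against sorted tumor cells gave -0.44 for Vwf (SE 0.103, adjusted p = 0.00718), under 1.5 times. Without both sorted libraries labeled sg492 that difference was -0.14 (adjusted p = 0.355). That fit kept the sg492 bulk tumors, which had the highest Vwf in bulk, so its sides no longer held the same guides. It therefore cannot tell which libraries the difference rested on.

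Within a library, Vwf and Pecam1 stood in proportions that differed by sample type. Vwf was between 0.384 and 0.979 times Pecam1 within a bulk tumor, between 24.4 and 92.5 times Pecam1 within a sorted library, and between 2.42 and 69 times Pecam1 within a cultured library, where Pecam1 was at most 0.24 TPM. Megakaryocytes and platelets also make Vwf, and 6 of their genes were read beside it. Of these 6, Gp1ba was at most 0.39 TPM in sorted tumor cells, Gp6 at most 0.03, Gp9 at most 0.77 and Pf4 at most 1.36, and Ppbp was listed at 0. Itga2b, an integrin that also marks this lineage, ranged from 1.24 to 6.4 TPM in sorted tumor cells against 0.09 to 1.08 TPM in culture. It was called higher (1.34, SE 0.285, limma adjusted p = 0.00223). With a median of 0.485 TPM in culture, it too passed the filter only through sorted tumor cells, and its call is a description. The whole list summed to between 1.74 and 6.91 TPM in sorted tumor cells and between 0.6 and 1.37 TPM in cultured cells.

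**Figure D2:**
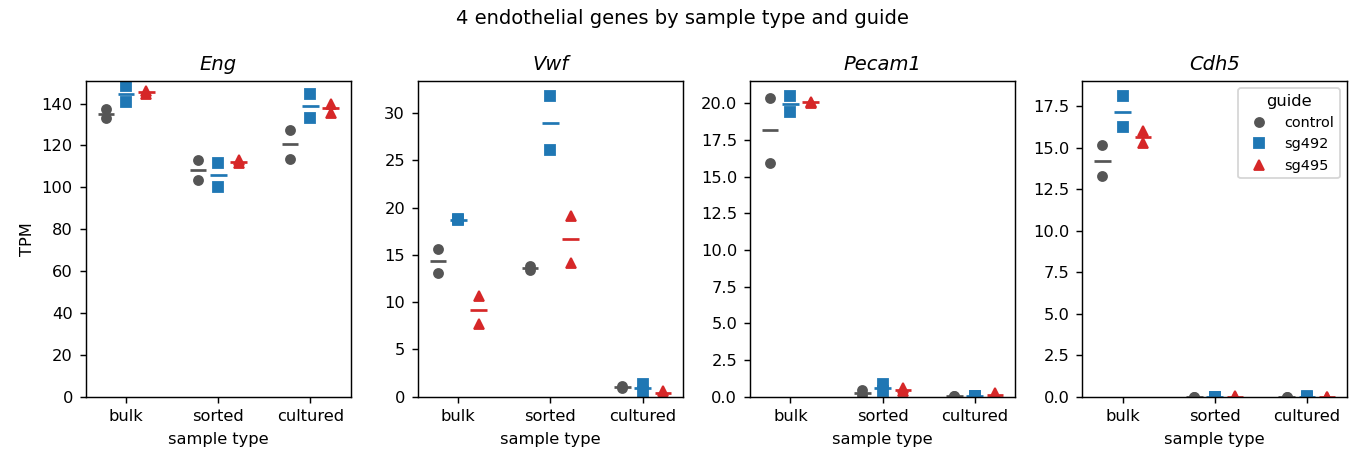
TPM (vertical axis, linear, from 0) of Eng, Vwf, Pecam1 and Cdh5 by sample type (horizontal axis), with 1 point for each library, a bar at the mean of the 2 libraries and color and shape for the guide. Eng is between 100.2 and 148 TPM in all 3 sample types, Vwf is between 7.71 and 31.8 TPM in bulk tumors and sorted tumor cells, and Pecam1 and Cdh5 are above 1 TPM only in bulk tumors.

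Each guide was then compared with control within bulk tumors, which asks whether loss of Nr2f6 in the melanoma cells went with a change in vessel genes. No member was called for either guide. For sg495, 0.0293% of genes were called (4 of 13639, and 2135 had an unadjusted p below 0.05), and for sg492 0% were called (1132 had an unadjusted p below 0.05). Differences of the members were small. They were positive for most genes tested, members or not: for 63.1% of all genes with sg495 and for 65.7% with sg492. With sg495, 9 of 10 members had a positive difference, with a median of 0.202 on the log2 scale against 0.0596 over all genes tested. With sg492, all 10 were positive, with a median of 0.13 against 0.0601. The 2 comparisons share the control libraries and are not independent.

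Both sg495 libraries lay above both controls for 5 members, Cdh5, Emcn, Eng, Esam and Flt1, as they did for 31.6% of all genes tested. Vwf was the 1 member with both sg495 libraries below both controls, as were 14.3% of genes. Both sg492 libraries lay above both controls for Cdh5, Eng, Flt1, Kdr and Vwf, as for 31.1% of genes, and below both for no member, against 11.3% of genes. The members other than Vwf differed by at most 0.30 on the log2 scale from control with either guide. The sum of all members but Eng and Vwf was 78.6 and 69.9 TPM in the unedited tumors, then 83.8 and 84.2 TPM for sg492 and 85.7 and 87.8 TPM for sg495.

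**Figure D3:**
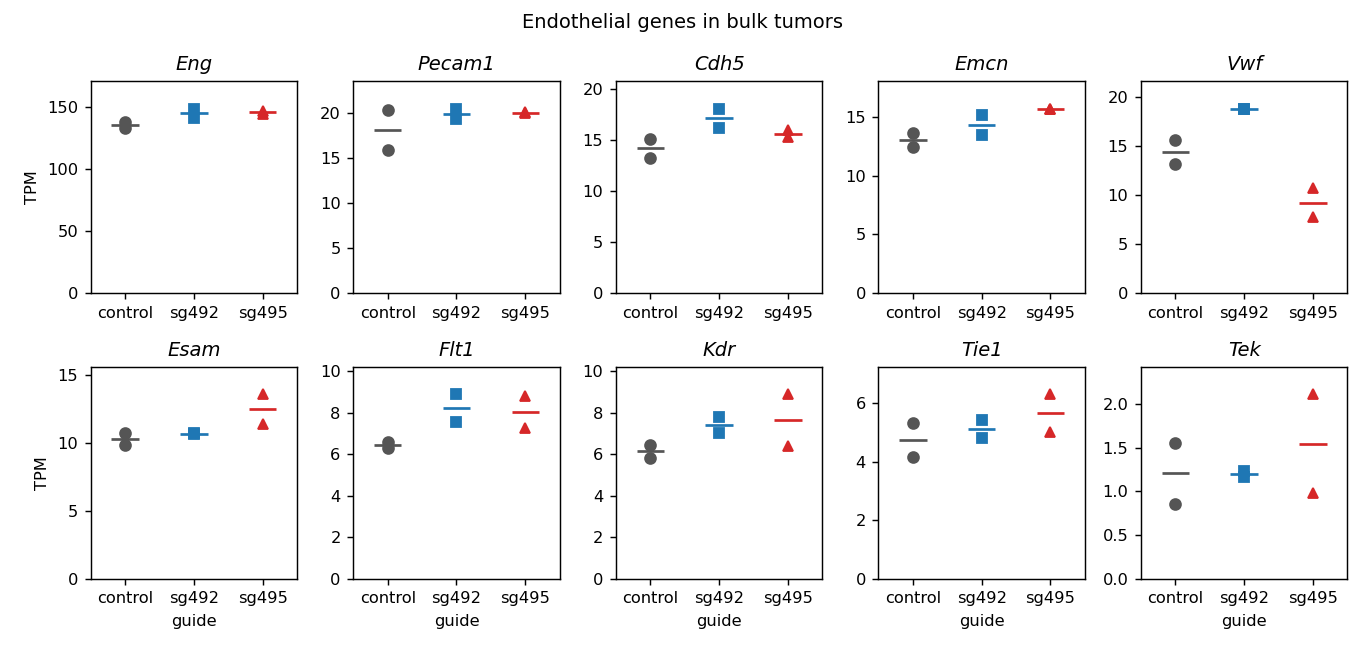
TPM (vertical axes, linear, from 0) of each of the 10 genes in the 6 bulk tumors by guide (horizontal axis), with 1 point for each library and a bar at the mean. Vwf is lowest with sg495 (10.7 and 7.71 TPM) and highest with sg492 (18.7 and 18.8 TPM), while the groups of the other genes lie close together.

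Vwf was the member with the largest differences. It was 0.60 lower with sg495 than with control (log2 difference -0.60, SE 0.166, unadjusted p = 0.0104, limma adjusted p = 0.16) and 0.37 higher with sg492 (SE 0.166, adjusted p = 0.622). The 2 guides were set against each other directly, since Nr2f6 RNA was lower with sg495 than with sg492: sg495 was 0.97 below sg492 (log2 difference -0.97, SE 0.166, unadjusted p = 0.000996, adjusted p = 0.203). Of all genes, 0% were called between the guides, with 1384 at an unadjusted p below 0.05. None of these differences passed the threshold. Over the alternatives tried, the sg495 difference ran from -0.81 to -0.39 with an adjusted p between 0.141 and 0.466, and the difference between guides from -1.18 to -0.76 with an adjusted p between 0.063 and 0.657.

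Genes of other cell types were read in the same tumors. The 12 leukocyte genes summed to 156.6 and 223.7 TPM without editing, to 273.9 and 316.9 TPM for sg492, and to 355.8 and 415 TPM for sg495, in increasing order within each group. The 10 fibroblast genes summed to 397.6 and 501.4, 562.5 and 645.2, and 662.6 and 1101 TPM in these groups. For mural cells, which wrap vessels, the sums of 12 genes did not separate: 173.5 and 202.3, 180 and 214.4, and 188.7 and 191.3 TPM. Much of this sum was Mcam (78.0 to 105.5 TPM), which cultured melanoma cells also carried (50.2 to 100.5 TPM). Of mural genes listed at 0 in culture, Rgs5 was 15.9 and 16.5 TPM in control against 23.1 and 26.6 TPM with sg495. Acta2 went the other way, at 31.5 and 26.3 against 24.5 and 20.7 TPM. With sg495, 8 of 11 tested mural genes were positive (median 0.24), and none was called. The 6 platelet genes summed to 30.17 and 35.32, 32.18 and 33.54, and 21.27 and 28.39 TPM, and the 6 red blood cell genes to 565.3 and 1769, 549.7 and 1305, and 299.8 and 732.5 TPM. The leukocyte and fibroblast sums were thus highest, and the platelet sum lowest, in the sg495 tumors. Most of the platelet sum was Pf4 (19.2 to 32.2 TPM in bulk tumors), which was between 298.4 and 905.8 TPM in the IgG and anti-PD1 libraries. Itga2b, the other platelet gene tested, was 1.02 and 1.33 TPM in control against 1.65 and 1.11 TPM with sg495, so these groups overlapped. The part of these cell types in the values of the members was not tested.

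Cdh5 lies on chromosome 8 (chr8:104101625-104144511), whose genes as a group were lower with sg495. In bulk tumors the median difference was -0.25 on the log2 scale over 717 genes of chromosome 8 and 0.067 over the other genes. Cdh5 stood at 0.13 (SE 0.111, adjusted p = 0.634) in that comparison, above the median of its chromosome.

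**Figure D4:**
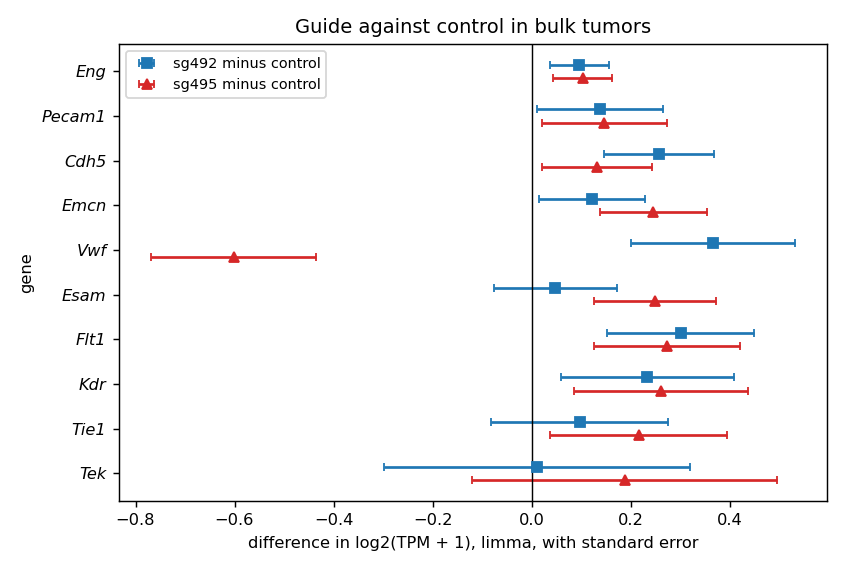
Difference from control in log2(TPM + 1) in bulk tumors (horizontal axis) for each of the 10 genes (vertical axis), for sg492 (blue squares) and sg495 (red triangles), with bars for the standard error of the limma fit over 2 libraries per group. Vwf is at 0.37 with sg492 and at -0.60 with sg495, and the other genes lie between 0.01 and 0.30.

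Outside bulk tumors and the antibody libraries, only Eng and Vwf were high enough to test, and neither was called for a guide. In sorted tumor cells the libraries labeled sg492 were both above control in Vwf, by 1.03 on the log2 scale (SE 0.169, unadjusted p = 0.000817, limma adjusted p = 0.432), and sg495 differed by 0.26 (adjusted p = 0.516). Called genes made up 0.0388% of those tested with sg492 (5 of 12899) and 0.899% with sg495 (116). The sg492 value belongs to libraries whose Nr2f6 was not below control. In cultured cells Eng differed from control by 0.20 with sg492 (adjusted p = 0.405) and by 0.19 with sg495 (adjusted p = 0.135), where 0.05% and 2.77% of 12007 genes were called. The effect of sg495 was also compared between sample types in 1 fit of all 18 libraries. None of the 9 members tested was called for a difference in effect between bulk tumors and cultured cells, where 1.76% of genes were called, or between sorted and cultured cells, where 2.51% were called. All of these members but Eng and Vwf passed the filter only through bulk tumors and were near 0 elsewhere. For them sorted and cultured cells could hardly differ in effect. The difference between bulk tumors and cultured cells only repeated the bulk value for Cdh5, Kdr, Flt1, Emcn and Tie1. The largest such difference among the members was that of Vwf between sorted and cultured cells, 0.86 (SE 0.328, limma adjusted p = 0.179). Its cultured side was near the floor, at 0.14 to 1.38 TPM.

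Antibody treatment was compared in the 2 IgG and 3 anti-PD1 libraries. Tie1, Emcn, Esam and Cdh5, each above 4 TPM in every bulk tumor, were at most 0.33, 0.51, 0.96 and 1.02 TPM in these 5 libraries. Tek, which was low in bulk tumors as well, was at most 0.73 TPM. Cdh5 averaged 24.5 times more in bulk tumors, and 17.1 times more after median-of-ratios scaling, which lowers bulk tumors relative to these libraries (size factors 1.065 to 1.128 against 0.7089 to 0.8256). Of the others, Pecam1 was between 5.94 and 17.4 TPM and overlapped the bulk tumors without exceeding them, and Flt1 was between 3.31 and 18.7 TPM and reached above them. Vwf averaged 1.385 times more in bulk tumors as deposited and 0.961 times after that scaling, so its direction turned. Leukocyte genes were high in the same 5 libraries, with Ptprc between 86.7 and 272.5 TPM, and Cd93, listed as endothelial, was between 53.4 and 114.8 TPM there and between 10.8 and 17.4 TPM in bulk tumors. Sample type, batch and treatment with antibody cannot be told apart between these libraries and bulk tumors.

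Pecam1 was 17.4 and 11.6 TPM with IgG and 5.94, 9.88 and 10.3 TPM with anti-PD1. All anti-PD1 libraries were below both IgG libraries, with a difference of -0.69 on the log2 scale (SE 0.329, limma adjusted p = 0.608). Kdr was 3.62 and 4.81 TPM with IgG and 0.58, 2.02 and 2.61 TPM with anti-PD1, a difference of -1.004 (SE 0.495, adjusted p = 0.608), again without overlap. All anti-PD1 libraries lay below both IgG libraries for 15.8% of all genes tested and above both for 9.57%, the latter for no tested member. Flt1 was 9.19 and 18.7 TPM against 3.31, 9.35 and 17.9 TPM, Vwf 9.34 and 19.4 TPM against 12.6, 6.33 and 3.26 TPM, and Eng 40.3 and 24.4 TPM against 49.0, 44.7 and 31.5 TPM, and these groups overlapped. No member was called among the 5 tested, and 0% of 13418 genes were called, with 964 at an unadjusted p below 0.05. Leukocytes carry Pecam1, and their genes summed to 4400 and 4932 TPM with IgG and to between 2250 and 4032 TPM with anti-PD1, with 1 of 12 positive and a median difference of -0.509. Melanocyte genes summed to 1700 and 4007 TPM with IgG and to between 3408 and 5194 TPM with anti-PD1, with 8 of 8 positive and a median of 0.92. None of these genes was called, and their part in the values of the members was not tested.

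Other endothelial genes, 25 in a list written beside the members, were read in the same way. In bulk tumors 21 were tested and none was called for either guide. Their median difference was 0.246 with sg495 and 0.0921 with sg492, with 17 of 21 positive in each, against medians of 0.0596 and 0.0601 and positive shares of 63.1% and 65.7% over all genes tested. The sg492 median thus lay close to that of all genes. The summed list was between 175.6 and 219.7 TPM in bulk tumors, between 36.39 and 50.92 TPM in sorted tumor cells and between 31.95 and 40.05 TPM in culture. Cldn5, a tight junction protein, was between 2.14 and 4.21 TPM in bulk tumors and listed at 0 in all 12 sorted and cultured libraries, like Flt1 and Tek. Egfl7, a secreted endothelial factor, was between 39.4 and 48.4 TPM in bulk tumors and between 16.9 and 26.7 TPM in sorted and cultured cells, so it shared the pattern of Eng in part.

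Icam2, an adhesion molecule of endothelium and leukocytes, was the 1 gene of that list called for a guide. The call was in sorted tumor cells with sg495, where 4 of the list were tested and 0.899% of all genes were called. Its sorted-cell TPM values were 4.38 and 4.8 for control, 6.68 and 9.67 for the libraries labeled sg492, and 14.3 and 16.8 for sg495. The sg495 difference was 1.56 (SE 0.193, limma adjusted p = 0.0306), and it was lost when any 1 of the control or sg495 libraries was left out, with an adjusted p between 0.143 and 0.232, and also without the expression filter or the trend. Bulk values of Icam2 were 14.1 and 8.06 (control) against 21.3 and 19.3 (sg495) TPM (difference 0.86, adjusted p = 0.161). Among adhesion molecules of activated endothelium, Icam1 in bulk tumors had 5.45 and 2.82 against 7.03 and 9.34 TPM for control and sg495 (0.88, SE 0.273, adjusted p = 0.2), and Vcam1 had 6.13 and 3.52 against 10.7 and 9.52 TPM (0.96, SE 0.314, adjusted p = 0.217). Neither was called, and 3 of the 6 genes of that list were tested. Both are also carried by leukocytes, whose genes were higher in the same tumors.

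Ligands of the member receptors were measured in the melanoma cells themselves. Vegfa, the main ligand of Kdr and Flt1, measured 82.9 and 80.5 TPM in unedited cultured cells, 67.9 and 59.1 TPM for sg492, and 42.0 and 42.4 TPM for sg495. The sg495 libraries were both below control, by 0.94 on the log2 scale (difference -0.94, SE 0.071, limma adjusted p = 0.00192), and the call held under every alternative tried. Sorted-cell values of Vegfa were 185 and 197 (control), 275 and 189 (labeled sg492), 281 and 287 (sg495) TPM, and bulk values were 91.4 and 123, 123 and 104, 146 and 136 TPM. In both of these sample types both sg495 libraries were above control, without a call (0.57, adjusted p = 0.199, and 0.40, adjusted p = 0.279).

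Pgf, a ligand of Flt1, had 4.65 and 4.31 TPM in unedited cultured cells against 1.96 and 0.99 TPM for sg495 (difference -1.17, SE 0.22, adjusted p = 0.0245), a call lost without either control library, without the second sg495 library, without the expression filter and in a fit of all 18 libraries. Its bulk values were 18.2 and 18.6 (control) against 41.1 and 31.8 (sg495) TPM (0.94, SE 0.131, adjusted p = 0.0865). Sorted tumor cells exceeded cultured cells by 3.22 for Pgf (adjusted p = 2.44e-06) and by 1.92 for Vegfa (adjusted p = 8.21e-08) on the log2 scale. The ligand list held 12 symbols for 11 genes, since Figf and Vegfd name the same gene, and all 11 were in the table. Of these, 6 were tested and 2, Vegfa and Pgf, were called in cultured cells with sg495, both lower. Over all genes tested there, 2.77% were called (332 of 12007), 244 of them lower. In bulk tumors with sg495, 4 of the 6 had a positive difference, and none was called. Both sg495 bulk tumors were below both controls for Vegfc (difference -0.50, SE 0.131, limma adjusted p = 0.146) and Angpt2 (difference -0.15, adjusted p = 0.64). The same was so for 14.3% of all genes tested. Angpt2, the ligand of Tek that counters Angpt1, was between 16.4 and 23.2 TPM in bulk tumors, and Angpt1 was at most 0.51 TPM.

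**Figure D5:**
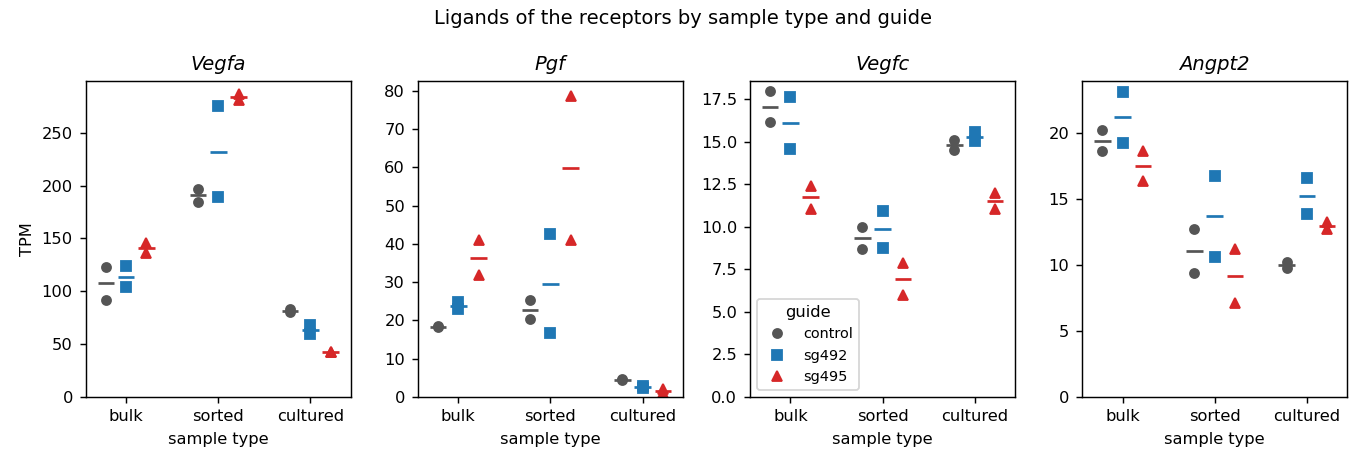
TPM (vertical axes, linear, from 0) of the ligands Vegfa, Pgf, Vegfc and Angpt2 by sample type (horizontal axis), with 1 point for each library, a bar at the mean of the 2 libraries and color and shape for the guide. Vegfa with sg495 is the lowest group in cultured cells (42.0 and 42.4 TPM) and the highest in sorted tumor cells (281 and 287 TPM).

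Receptor partners and targets of endothelial signaling numbered 12, of which 11 were tested in bulk tumors and none was called for a guide. Over all genes tested in cultured cells, 2.77% were called for sg495. In cultured cells with sg495, Nrp1, a coreceptor of VEGF, fell from 17.1 and 16.9 TPM to 10.6 and 11.1 TPM (difference -0.60, SE 0.069, adjusted p = 0.00568), a call lost without the first sg495 library (adjusted p = 0.0513). Apln, the ligand of the apelin receptor, was called lower as well, at 1.87 and 1.86 TPM against 0.42 and 0.59 TPM (adjusted p = 0.0314), which was lost under 7 of the alternatives. Among genes of the cells around vessels, Mcam, an adhesion molecule of mural, endothelial and melanoma cells, was called higher in cultured cells with sg495, at 54.6 and 52.9 TPM against 100.5 and 100.0 TPM (0.89, SE 0.043, adjusted p = 0.000776). Postn, a matrix protein of fibroblasts, was called lower there, at 6.69 and 6.83 TPM against 3.75 and 3.8 TPM (difference -0.70, SE 0.107, adjusted p = 0.0135), a call lost under 6 alternatives, among them leaving out any 1 of these 4 libraries. Esm1, a marker of sprouting tip cells, was between 6.97 and 13.9 TPM in bulk tumors and listed at 0 in all 12 sorted and cultured libraries. Both sg495 bulk tumors were below both controls for Esm1 (difference -0.49, limma adjusted p = 0.366) and Apln (difference -0.50, adjusted p = 0.142), as for 14.3% of all genes tested. Of the 11 partners and targets tested there, 7 had a positive difference.

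Genes whose pattern was most like the members were found over the 11 libraries of bulk tumors, IgG and anti-PD1, as the Pearson r with the members' mean log2(TPM + 1), each centered within the 6 bulk tumors and within the other 5. Of 12312 genes ranked, the 10 highest were Ncoa6 (r = 0.978), Zc3h12c (0.97), Zswim8, Ier5l, Mllt10, Gatad2b, Arid2, Rgp1, Phka2 and Ppme1 (0.95). None is in the endothelial lists. The members' mean moved by at most 0.158 on the log2 scale within bulk tumors and 0.319 within the others, and the points share libraries and composition. Without the 2 libraries farthest from the median, the second IgG and the third anti-PD1 library, r ranged from 0.943 for Ncoa6 to 0.853 for Ppme1.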

How the data were processed

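RNA-seq of 23 libraries was analyzed. Per the labels and methods, the authors enriched poly(A) RNA, made directional single-end libraries, trimmed reads with Cutadapt 2.3, aligned them to mm10 with STAR 2.7.0d and quantified genes with RSEM 1.3.1, and the submitters' notes name these versions. The deposited values are TPM, which RSEM computed for the authors and which were used as deposited. TPM holds no read number, so the depth of each library is unknown here, beyond the 23 to 31 times 1000000 reads that the labels state over all libraries, and no counting intervals could be given. The authors' own test, DESeq2 on estimated counts, was not repeated.

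Genes whose TPM averaged 1 or more across the libraries of a fit were kept, and log2(TPM + 1) was fitted by limma 3.58.1 under R 4.3.3, using lmFit, then eBayes with its trend option, and 1 mean per group. Each sample type was fitted alone over its 6 libraries, sample types were compared in fits of 12, and IgG and anti-PD1 in a fit of 5. P-values were adjusted after Benjamini and Hochberg over all genes of a fit, and calls needed an adjusted p under 0.05 and a change of 1.5 times. A fold change on this scale understates that of low genes. The fits were tested on simulated data. Positions came from GENCODE M21, which held 47224 of the 47643 genes, and promoters from RefSeq. Tables came from pandas 2.3.3 and figures from matplotlib 3.10.9 (Python 3.11.15).

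Members and lists were chosen with earlier results of these data known. The rule for named genes took all members, the genes of a list that were called, up to 4 of its most abundant genes, and the 10 genes most like the members. Called genes of the lists are named for the guide comparisons, and those called only between sample types are mostly given by counts or sums. The other list genes named were chosen after their values were seen, as were the comparisons of the sg495 effect between sample types, the exchanged pairing and the fits without the sorted libraries labeled sg492. Alternatives were another pseudocount (0.1), no filter or a mean of 5 TPM, median-of-ratios scaling, a replicate block, eBayes without a trend, 1 fit of all 18 libraries and leaving out each library.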

Additional observations from a re-analysis of the deposited data

Results flagged for a closer look

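By the interaction test in 1 limma fit of all 18 libraries, no member was called for a difference in its sg495 effect between sample types. Over all lists and both comparisons together, 9 genes were called. Of all 13152 genes tested, 1.76% (231) were called between bulk tumors and cultured cells, and 2.51% (330) between sorted and cultured cells. The 9 genes are thus a description and not a contrast with the members. Among the members, only Eng was high enough in all 3 sample types for the interaction test to be informative. Vwf was high enough in bulk tumors and sorted tumor cells but averaged 0.783 TPM in cultured cells. Vegfa, the main VEGF receptor ligand, had an sg495 effect 1.34 higher on the log2 scale in bulk tumors than in cultured cells (SE 0.226, adjusted p = 0.0153) and 1.51 higher in sorted than in cultured cells (SE 0.226, adjusted p = 0.00431). In culture the sg495 libraries lay below the controls, and in both other sample types they lay above them. The first of these calls was lost without any 1 of the 4 cultured control and sg495 libraries (adjusted p up to 0.0698), and the second was kept under every alternative tried.

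Pgf, a ligand of Flt1, had an sg495 effect 2.47 higher in sorted than in cultured cells (SE 0.518, adjusted p = 0.023), which was lost when some single libraries were left out. Nrp1, the VEGF coreceptor, had an effect 0.84 higher in bulk tumors than in culture (SE 0.172, adjusted p = 0.0306), which was lost in 8 of the fits that left out a library. Icam2, the adhesion molecule, had an effect 1.95 higher in sorted cells than in culture (SE 0.342, adjusted p = 0.00928), kept under every alternative. Mcam, an adhesion molecule on the mural cell list, had an effect that was lower than in culture in bulk tumors (difference -1.02, SE 0.19, adjusted p = 0.0217, lost under 5 alternatives) and in sorted cells (difference -1.06, SE 0.19, adjusted p = 0.0101), the latter lost without the second cultured control library (adjusted p = 0.0504). In bulk tumors against culture, the effect was also higher for the leukocyte genes Itgb2 (1.0, adjusted p = 0.0214), Ptprc (1.46, adjusted p = 0.0325) and Coro1a (1.64, adjusted p = 0.0307) and for the fibroblast gene Postn (1.47, adjusted p = 0.0457), and each of these 4 calls was lost under some alternatives. These comparisons share the cultured libraries and were chosen after the data had been seen.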

How the results depend on the processing

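No member was called for a guide or for anti-PD1 under any alternative tried. Over 546 values of 41 such differences of members, 22 had another sign than reported, in 14 differences, and none was called. Between sample types, 206 values kept their sign. In bulk tumors against sorted tumor cells 7 members were called, 4 when a mean of at least 5 TPM was required, since fewer members were then tested, and 7 in every fit without 1 library. Among levels of the members, their sum averaged 237.5 TPM in bulk tumors as deposited and 215.9 TPM after median-of-ratios scaling.

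Replicate numbers did not pair the libraries: correlations of deviations ran from -0.126 to 0.0507. With a replicate block, 7 members were again called between bulk tumors and sorted tumor cells, 1 between sorted and cultured cells, and none for a guide or for anti-PD1, as was also so with the exchanged pairing of the sg492 bulk tumors. The block moved the genes called for anti-PD1 from 0 to 514, for sg495 in bulk tumors from 4 to 0, and for sg492 from 5 to 0 in sorted and from 6 to 0 in cultured cells. In the anti-PD1 fit of 5 libraries, the block left almost nothing from which to estimate the spread. No conclusion is drawn from those 514 genes. A fit of all 18 libraries called 395 genes for sg495 in bulk tumors and 399 against 116 in sorted tumor cells. Without the first control library, 190 genes were called for sg495 and 66 for sg492 in bulk tumors. Without any 1 library, genes called for sg495 ran from 0 to 190 in bulk tumors, 4 to 61 in sorted tumor cells and 165 to 293 in cultured cells. Low members such as Tek, at 2 libraries per group, are those whose differences are least certain.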
